A study of Mus musculus with 384 samples.

Results

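In all, 10 forkhead transcription factor genes were examined for accessible chromatin in a mouse breast tumor: Foxo1, Foxo3, Foxp1, Foxp2, Foxp4, Foxk1, Foxn3, Foxm1, Foxc1 and Foxj1. They were named as a family, by symbol, with earlier results of these data known, and are 10 of 22350 annotated protein-coding genes. Their chromatin was read from a list of 50000 accessible windows of 500 bp each, deposited in the mouse build mm9. A window was counted for a gene when its centre fell inside the gene body or no further than 50 kb from one of the gene's annotated transcription start sites (TSS), and it was called a promoter window when the centre lay within 1 kb of a start site. By these rules 69 windows were counted, 63 within 50 kb, 45 inside gene bodies and 39 meeting both conditions, and no window was counted for more than 1 gene.

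The list came from Pi-ATAC, in which single cells are stained for proteins and their open DNA is tagged by a transposase. The cells were isolated from 1 tumor of an MMTV-PyMT mouse, sacrificed at 3 months of age, in which a mammary promoter drives a viral oncogene. They were fixed, stained for EpCAM, an epithelial adhesion protein, and CD45, a leukocyte surface protein, and sorted singly into 4 plates of 96 wells. Labels place all wells in 1 group and the windows were called on the cells together, so the list gives no value for a well, a stained population or a replicate, and no test across samples was possible.

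Forkhead proteins share a winged-helix DNA-binding domain that recognises variants of the core GTAAACA. FOXO proteins are held in the cytoplasm when insulin or growth factor signalling activates the kinase AKT, and enter the nucleus when that signalling falls, where they act on genes of cell cycle arrest, stress defence and metabolism. FOXP proteins are mostly repressors, FOXM1 drives the genes of mitosis, FOXJ1 directs motile cilia, and FOXC1 acts in mesenchymal development and is known as a marker of basal-like breast cancer.

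Promoter windows were present at Foxo1, Foxo3, Foxp1, Foxp4, Foxk1, Foxn3 and Foxc1, and at none of the start sites of Foxp2, Foxm1 and Foxj1. The 7 of 10 genes make 70.0% (exact 95% interval 34.8% to 93.3%), against 43.5% of all protein-coding genes, a share that lies inside the interval. The interval does not cover the choice of members, which was made with earlier results of these data known. Within 50 kb the members had a median of 5.5 windows (range 2 to 12), against a median of 3 over all protein-coding genes. All 10 members had at least 1 such window, as did 84.6% of protein-coding genes. Foxp1 and Foxp4, with 12 windows each, held 24 of the 63, and without them the sum was 39 and the median 3.5. Inside gene bodies the members had a median of 3.5 windows, against 0, and 7 of 10 had at least 1, against 47% of protein-coding genes. Member bodies are long, and per 100 kb of gene body the members held 3.10 windows and all protein-coding genes 2.66.

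**Figure D1:**
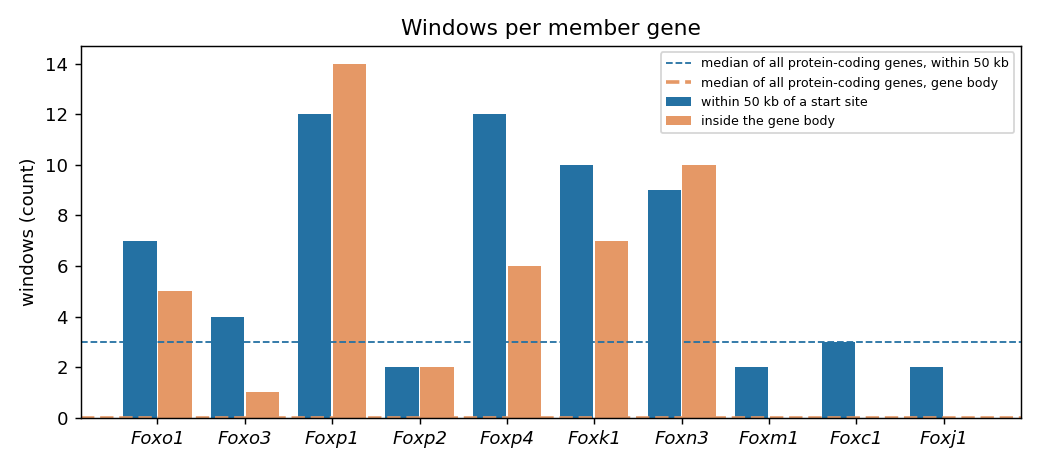
Number of windows counted for each member gene within 50 kb of a start site (blue) and inside the gene body (orange). Dashed lines mark the medians of all protein-coding genes, 3 within 50 kb and 0 in the body. Foxp1 and Foxp4 have 12 windows each within 50 kb, Foxp2, Foxm1 and Foxj1 have 2 each, and Foxm1, Foxc1 and Foxj1 have 0 in the body.

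Of the 69 windows, 11 were promoter windows, 39 others were intronic and 19 others lay outside the member's body. The 11 promoter windows were centred 0.018 to 0.788 kb from a start site, with a median of 0.129 kb. The other 58 lay 1.01 to 187.4 kb away. For 58 of the 69 windows the nearest protein-coding start site was that of the member itself. The 11 others were both windows of Foxm1 and both of Foxj1, 2 of Foxk1, 4 of Foxn3 and 1 of Foxp4. A window 1012 bp upstream of Foxo3 fell just outside the promoter limit, and one 788 bp downstream of the inner Foxn3 start site fell just inside it. At the other limit, a Foxp4 window at 49.7 kb was just inside 50 kb, and a Foxp1 window at 51.7 kb was outside it but within the gene body.

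**Figure D2:**
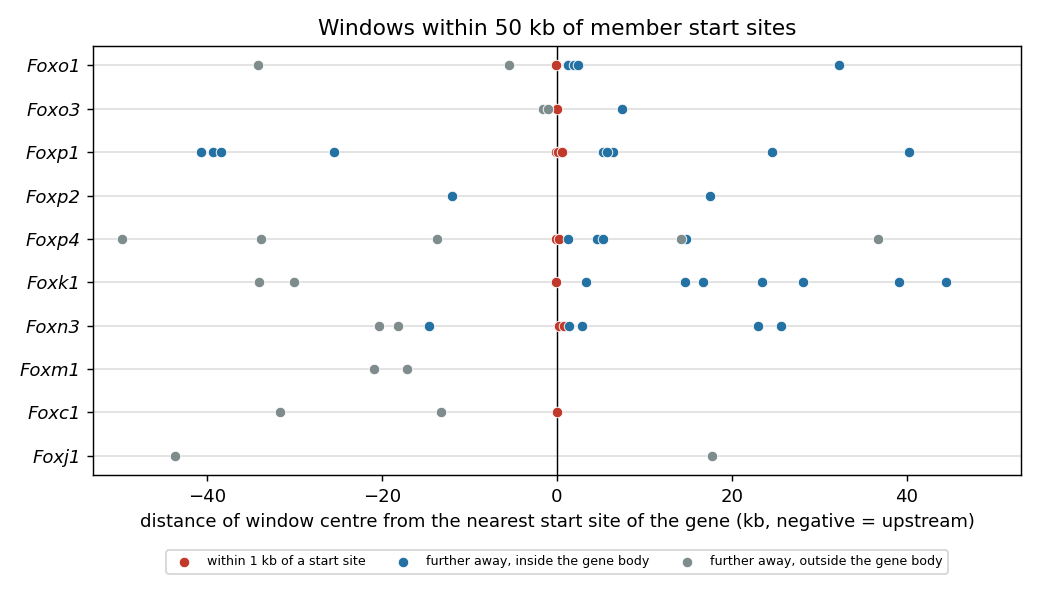
Each point is a window within 50 kb of a member gene, placed by the distance in kb of its centre from the nearest start site of that gene, with upstream to the left. Red points lie within 1 kb of a start site, blue points further away in the gene body and grey points outside it. The rows of Foxp2, Foxm1 and Foxj1 have no red point.

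Promoter sequence is shown for the 7 members with a start site under a window and for 3 start sites without one, to let their base composition be compared. Each line gives the 150 bases that end just before a start site, in the direction of transcription (mm9), with the CCAAT box (CCAAT) and the GC box (GGGCGG), on either strand, in capitals. The regions are chr3:52072109-52072258 for Foxo1, chr10:41996562-41996711 (minus strand) for Foxo3, chr6:98978308-98978457 (minus strand) for an inner start site of Foxp1, chr17:48061595-48061744 (minus strand) for Foxp4, chr5:142877301-142877450 for Foxk1, chr13:31898365-31898514 for Foxc1 and chr12:100632008-100632157 (minus strand) for the inner start site of Foxn3. Those without a window are chr11:116196714-116196863 (minus strand) for Foxj1, chr6:14851199-14851348 for the outermost start site of Foxp2 and chr6:99216527-99216676 (minus strand) for that of Foxp1.
Foxo1: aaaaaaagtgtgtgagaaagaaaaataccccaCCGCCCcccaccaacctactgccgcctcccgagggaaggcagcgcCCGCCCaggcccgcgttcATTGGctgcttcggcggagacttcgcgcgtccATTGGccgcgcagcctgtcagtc
Foxo3: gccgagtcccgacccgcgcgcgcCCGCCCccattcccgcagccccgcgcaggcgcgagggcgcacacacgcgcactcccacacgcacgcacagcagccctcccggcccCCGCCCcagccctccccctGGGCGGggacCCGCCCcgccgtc
Foxp1 (inner start site): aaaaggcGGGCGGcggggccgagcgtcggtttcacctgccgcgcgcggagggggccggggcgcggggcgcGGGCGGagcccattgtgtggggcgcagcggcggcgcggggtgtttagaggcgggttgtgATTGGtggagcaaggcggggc
Foxp4: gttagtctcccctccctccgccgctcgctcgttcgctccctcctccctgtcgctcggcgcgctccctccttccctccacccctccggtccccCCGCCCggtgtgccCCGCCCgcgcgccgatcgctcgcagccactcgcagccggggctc
Foxk1: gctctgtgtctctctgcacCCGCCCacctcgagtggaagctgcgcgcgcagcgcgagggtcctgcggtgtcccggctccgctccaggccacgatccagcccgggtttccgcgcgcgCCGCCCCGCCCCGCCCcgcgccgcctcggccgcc
Foxc1: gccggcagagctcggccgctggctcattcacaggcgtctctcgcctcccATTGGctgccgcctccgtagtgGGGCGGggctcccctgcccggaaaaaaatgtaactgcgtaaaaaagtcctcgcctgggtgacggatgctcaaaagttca
Foxn3 (inner start site): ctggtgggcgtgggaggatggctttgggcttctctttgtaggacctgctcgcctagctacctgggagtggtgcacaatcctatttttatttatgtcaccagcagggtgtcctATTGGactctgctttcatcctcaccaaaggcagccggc
Foxj1 (no window): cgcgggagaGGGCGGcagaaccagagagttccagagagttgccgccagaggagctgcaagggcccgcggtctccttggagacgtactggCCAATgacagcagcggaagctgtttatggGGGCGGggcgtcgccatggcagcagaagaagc
Foxp2 (outermost start site, no window): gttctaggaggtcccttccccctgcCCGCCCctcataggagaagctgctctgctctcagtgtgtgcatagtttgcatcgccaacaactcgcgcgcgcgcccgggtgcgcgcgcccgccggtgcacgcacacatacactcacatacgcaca
Foxp1 (outermost start site, no window): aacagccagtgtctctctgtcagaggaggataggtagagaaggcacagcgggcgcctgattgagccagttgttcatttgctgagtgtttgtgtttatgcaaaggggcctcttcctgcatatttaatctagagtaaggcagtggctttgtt
The 7 regions at a window held 24 (Foxk1), 23 (Foxo3), 23 (Foxp1), 21 (Foxp4), 14 (Foxo1), 12 (Foxc1) and 3 (Foxn3) CpG dinucleotides, against 25 at Foxm1, 15 at Foxp2, 11 at Foxj1, 4 at Foxn3 and 2 at Foxp1 upstream of the outermost start sites without a window. The ranges overlap, with Foxn3 low among those with a window and Foxm1, whose sequence is not printed, above all 7. At Foxn3, 31 of the 150 bases lay inside the window, and at the 6 others all of them. A GC box was present at 6 of the 7, all but Foxn3, and also at Foxm1, Foxp2 and Foxj1 without a window. A CCAAT box was present at Foxo1, Foxp1, Foxc1 and Foxn3, and also at Foxm1 and Foxj1 without a window. Over 69932 annotated start sites of protein-coding genes, 32.4% held a GC box and 22.6% a CCAAT box in the same 150 bases, on either strand. These start sites were taken with or without a window, unlike the 7 regions at a window. A match describes the letters only.

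Foxo1 and Foxo3, the FOXO genes of this set, both had a window over the start site. Foxo1 (ENSMUSG00000044167.5, chromosome 3, 81.8 kb) had 8 windows, 7 of them within 50 kb, and 21.0% of protein-coding genes had as many or more within that reach. Its promoter window, chr3:52071890-52072389, was centred 0.119 kb upstream of the only annotated start site and held 56 CpG at 63.8% GC. Its first intron held 5 windows, at 1304, 1992, 2390, 32303 and 72389 bp from the start. The windows at 1304 and 1992 bp are also within 1 kb of the start site of a non-coding transcript on the opposite strand (ENSMUSG00000092405.1). Upstream windows lay at 5.43 and 34.2 kb, the far one with 1 CpG at 32.2% GC, the lowest GC of all 69.

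Foxo3 (ENSMUSG00000048756.4, chromosome 10, 94.9 kb) had 4 windows, and 46.6% of protein-coding genes had as many or more within 50 kb. They lay close to its 3 start sites, at 18, 1012 and 1566 bp upstream and at 7392 bp downstream. The first of these held 62 CpG at 74.8% GC. No window was counted in the rest of the gene body, which spans 94.9 kb, so Foxo1 and Foxo3, of similar length, had 5 and 1 windows inside the body.

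Among the FOXP genes, Foxp1 and Foxp4 had among the highest counts of the 10 and Foxp2 among the lowest. Foxp1 (ENSMUSG00000030067.9, chromosome 6, 341.2 kb), a repressor with roles in lymphocyte and lung development, had 14 windows, all inside its body and 12 of them within 50 kb of a start site. The first of them also lies inside Eif4e3, an overlapping gene. Its promoter windows lay deep in the gene. Its 3 promoter windows were centred 0.073, 0.137 and 0.553 kb from the nearest of a group of inner start sites, 238.2 kb downstream of the outermost one, from which protein-coding transcripts begin. None lay at the outermost start sites, where the nearest window was 5300 bp into the gene, nor at the start site 103.5 kb into the gene, which is shared by 5 coding transcripts and had its nearest window 25.5 kb away. In all, 4 of 10 Foxp1 start sites had a promoter window. The inner promoter window chr6:98978130-98978629 held 66 CpG at 75.0% GC, and the window nearest to the outermost start site held 7 at 47.2%. The 3 inner windows overlap in part and so do not count as independent places.

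Foxp4 (ENSMUSG00000023991.9, chromosome 17, 57.5 kb), a regulator of lung and gut epithelium, had 12 windows, and 5.12% of protein-coding genes had as many or more within 50 kb, as for Foxp1. The sequence within reach of the start sites was longer at Foxp1 (340.8 kb) than at Foxp4 (145.7 kb). Per 100 kb of it, Foxp4 held 8.24 windows and Foxp1 3.52, against a median of 2.99 for all protein-coding genes. The Foxp4 promoter window was centred 0.129 kb upstream of the outermost start site, with 51 CpG at 67.2% GC. A promoter window was present at 8 of the gene's 9 start sites. A further promoter window, 0.289 kb from an inner start site with 7 CpG, rests on transcripts annotated as non-coding. Another 4 windows lay in the body 4.55 to 14.7 kb from a start site, and 5 lay outside it 13.7 to 49.7 kb away. One window in the first intron is also within 1 kb of the start site of Gm15556, a non-coding transcript.

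Foxp2 (ENSMUSG00000029563.10, chromosome 6, 541 kb), best known for its role in vocal learning and speech circuits, is the longest member and had 2 windows, 0.538 per 100 kb of sequence within reach of its start sites. This was the lowest of the 10 by that measure, against a median of 3.76 for the members and 2.99 for all protein-coding genes. None of its 15 start sites had a promoter window. The windows lay in introns, 313.1 and 463.3 kb into the gene, with 3 and 0 CpG at 39.2% and 41.6% GC.

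**Figure D3:**
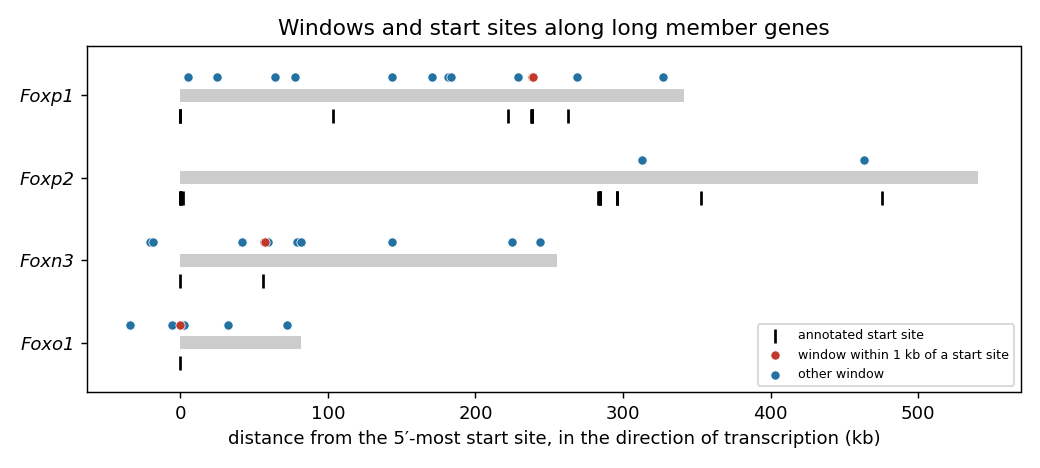
Windows (points) and annotated start sites (vertical ticks) along 4 long member genes drawn as grey bars, by distance in kb from the outermost start site in the direction of transcription. Red points are windows within 1 kb of a start site. They sit 238.1 to 238.9 kb into Foxp1 and 56.5 and 57.1 kb into Foxn3, at the start of Foxo1, and are missing from Foxp2.

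Foxk1 and Foxn3 had windows through their bodies. Foxk1 (ENSMUSG00000056493.7, chromosome 5, 60.5 kb), a repressor linked to autophagy and glucose metabolism, had 10 windows, and 9.20% of protein-coding genes had as many or more within 50 kb. It had the highest density of the members, 10.0 per 100 kb within reach of its start sites. Its promoter window was centred 0.105 kb upstream of the nearest start site with 51 CpG at 62.6% GC, 7 windows lay in its introns, 3.35 to 44.5 kb from a start site, and 2 lay upstream at 30.1 and 34.1 kb.

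Foxn3 (ENSMUSG00000033713.4, chromosome 12, 255.1 kb), first known as a checkpoint suppressor, had 12 windows, 9 of them within 50 kb and 10 in the body. As at Foxp1, promoter windows were found at an inner start site. Windows were centred 0.218 and 0.788 kb downstream of the start site 56.3 kb into the gene, and 2 more lay 1404 and 2822 bp downstream. The window at 788 bp held 73 CpG at 76.6% GC, the highest values of the 69. At the outermost start site the nearest window was 18.2 kb upstream. Both start sites belong to protein-coding transcripts.

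Foxm1 (ENSMUSG00000001517.8, chromosome 6, 12.9 kb) had 2 windows, 17.2 and 20.9 kb upstream, and 71.1% of protein-coding genes had as many or more. Both lie inside Tulp3, a neighbouring gene, whose start site is the nearest protein-coding one. None of the 5 Foxm1 start sites had a window. Its outermost start site lies 56 bp from that of 5930416I19Rik, a protein-coding gene on the opposite strand, so that the shared promoter of both lacked a window. The 150 bases upstream of Foxm1 held 25 CpG, a GC box and 2 CCAAT boxes, and are not printed because they overlap an exon of the neighbour.

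Foxc1 (ENSMUSG00000050295.2, chromosome 13, 3.99 kb) had 3 windows, 58.6% of protein-coding genes having as many or more. One was centred 39 bp upstream of its start site, with 47 CpG at 64.4% GC, and the others lay 13.3 and 31.7 kb upstream. Foxj1 (ENSMUSG00000034227.7, chromosome 11, 4.70 kb) had 2, at 43.7 kb upstream and 17.7 kb downstream, with the start sites of Rnf157 and Exoc7 nearest to them and none within 17 kb of its own.

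The absence of a window does not mean closed chromatin, since the list keeps only part of the called peaks. By the study's methods these are the 50000 of lowest q value, the error rate given by the peak caller. Peak names in the list carry a running number, from which the peaks called but not kept between neighbouring windows can be counted. Between the windows flanking the start site, 7 further peaks had been called within 79.0 kb at Foxm1, 4 within 61.5 kb at Foxj1, 19 within 803 kb at the outermost Foxp2 start site, 8 within 129.2 kb at that of Foxp1 and 7 within 59.8 kb at that of Foxn3. Where in these stretches they lay is not given. On the 8 chromosomes of the members 23.6% to 25.6% of called peaks were kept, against 41.5% to 51.8% on chromosomes 7, 8, 9 and X, which hold no member. Why these shares differ was not tested. Medians and shares over all protein-coding genes or all windows include chromosomes 7, 8, 9 and X. Of these backgrounds, only the promoter share was also counted without them. Of marker genes, 2 of 5 epithelial, 3 of 5 leukocyte, 4 of 4 fibroblast and 0 of 4 endothelial genes had a promoter window. The exact intervals were, in that order, 5.27% to 85.3%, 14.7% to 94.7%, 39.8% to 100% and 0% to 60.2%. Each contains the 43.5% of all protein-coding genes, so these counts do not tell which cell types were present. Which cells gave a member's windows cannot be told apart. The study's supplement describes a gate for EpCAM+ and CD45+ cells, while its methods state that sorting made no selection by staining. The study reports the cells of this experiment that passed its filter as EpCAM+ or CD45+, in similar numbers. Whether fibroblasts were among the cells was not tested. Ptprc, the gene of CD45, and Epcam had no promoter window, with 4 and 9 windows within 50 kb.

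Forkhead letters were then searched in the windows of the forkhead genes themselves. The broad forkhead word (GTAAACA, or the same letters with A as the first base, C as the second base, or both, on either strand) was present in 28 of 69 member windows, 40.6% (exact 95% interval 28.9% to 53.1%), against 30.9% of all windows. Of the 39 member windows both within 50 kb and inside the gene body, 33.3% held it. Every member had at least 1 window with the broad word, and the share of all protein-coding genes with such a window was not counted. The strict word GTAAACA was in 11 of 69 member windows, 15.9% (8.24% to 26.7%), against 5.97% of all windows, and the longer FOXO element GTAAACAA, which contains it, in 5 of 69, 7.25% (2.39% to 16.1%), against 1.70%. The strict word was also held by 16.4% of the 55 member windows lying over 1 kb from any start site, against 6.56% of all windows placed so. In those 55 member windows GTAAACAA was held by 5.45% (1.14% to 15.1%), an interval that contains the 1.82% of all windows placed so. Intervals cover counting error only, and windows of 1 gene share their surroundings. All windows include those of chromosomes 7, 8, 9 and X, where a larger share of called peaks was kept and no member lies. GTAAACA and GTAAACAA were among 17 words searched and are singled out here after their values were seen.

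Of the 11 windows with GTAAACA, 4 belong to Foxo1, 3 to Foxp1, 2 to Foxk1 and 1 each to Foxo3 and Foxp4. A pair of the Foxo1 windows overlap and share 1 site, which leaves 10 distinct sites. Without Foxo1 the share was 11.5%. No interval was computed for it, so whether it clears the 5.97% of all windows was not tested. GTAAACAA was found at 4 distinct sites, 2 at Foxo1 and 1 each at Foxo3 and Foxp1. Of the 5 windows with it, 3 belong to Foxo1. The sites of Foxo1, Foxo3 and Foxp1 with the longer element, and those of Foxk1 and Foxp4 with the shorter word, are shown with 20 bases on each side, on the strand that reads GTAAACA (capitals). They lie at chr3:52071966-52072012 (Foxo1 promoter window, plus strand), chr3:52074387-52074433 (Foxo1 first intron, minus), chr10:41998063-41998109 (Foxo3 upstream, minus), chr6:99045994-99046040 (Foxp1 intron, plus), chr5:142916489-142916535 (Foxk1 intron, minus) and chr17:48095521-48095567 (Foxp4 upstream, plus).
Foxo1 promoter: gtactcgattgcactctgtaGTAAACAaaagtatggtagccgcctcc
Foxo1 intron: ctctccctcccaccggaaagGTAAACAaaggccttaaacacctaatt
Foxo3: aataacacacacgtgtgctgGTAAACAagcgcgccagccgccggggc
Foxp1: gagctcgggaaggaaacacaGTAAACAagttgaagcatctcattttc
Foxk1: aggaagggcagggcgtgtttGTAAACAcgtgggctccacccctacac
Foxp4: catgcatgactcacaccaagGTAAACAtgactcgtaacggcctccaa
The Foxo1 promoter site lay 0.151 kb from the centre of its window, and the Foxo3 site 0.041 kb from the centre of the window at 1566 bp upstream. The Foxk1 site shares bases with an ACAAACA on the other strand, and its last A with an ACGTG. The Foxo3 stretch also holds an ACGTG. Foxp2, Foxn3, Foxm1, Foxc1 and Foxj1 had no GTAAACA in their windows but held other forms of the broad word, such as ATAAACA in a Foxp2 window that also contains a run of ACAAACA repeats.

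**Figure D4:**
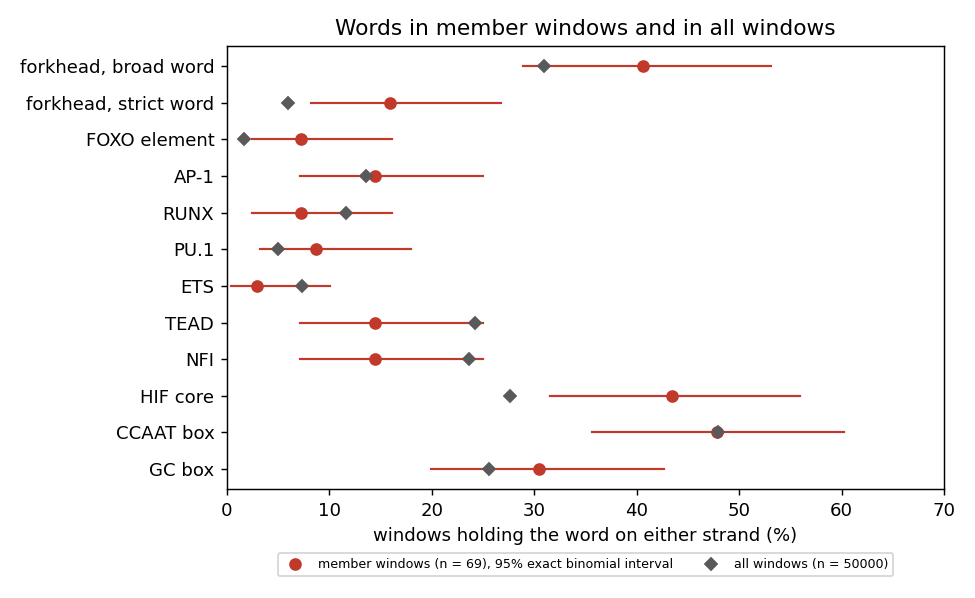
Share of windows, in %, that hold each word on either strand, for the 69 member windows (red points with exact 95% binomial intervals) and for all 50000 windows (grey diamonds). The interval lies above the share of all windows for the strict forkhead word (15.9% against 5.97%), the FOXO element (7.25% against 1.70%) and ACGTG, the core bound by hypoxia-inducible factors (HIF core, 43.5% against 27.6%). For the FOXO element this did not hold over 1 kb from any start site (5.45%, 1.14% to 15.1%, against 1.82%). The 5 member windows with the FOXO element hold 4 distinct sites, because 2 overlapping Foxo1 windows share 1 site, and no interval was computed with overlapping windows merged. Without Foxo1 the strict word was in 11.5% of member windows, also with no interval computed.

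Words of other factors, which the study followed in tumor and immune cells, were counted alongside. The AP-1 word TGACTCA was in 14.5% of member windows (7.17% to 25.0%) and 13.5% of all windows, and the RUNX word AACCACA in 7.25% of member windows (2.39% to 16.1%) and 11.6% of all. The PU.1 word GAGGAAGT was in 8.70% of member windows (3.26% to 18.0%) and 4.96% of all. The ETS word CCGGAAG was in 2.90% of member windows (0.353% to 10.1%) and 7.28% of all. Each of these intervals contains the share of all windows. The TEAD word GGAATG was in 14.5% of member windows and 24.3% of all, and the NFI word TTGGCA in 14.5% of member windows and 23.6% of all, with intervals of 7.17% to 25.0% for both that contain the share of all windows. Member windows within 1 kb of any start site (14) had a median of 45 CpG at 64.1% GC, against 31 at 59.6% over all 13310 such windows, and those further away (55) a median of 9 CpG at 50.2% GC, against 6 at 48.2%.

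Other genes of the same family and of its pathways were counted in the same way. Of 33 other forkhead genes 9 had a promoter window, 27.3% (exact 95% interval 13.3% to 45.5%), with a median of 3 windows within 50 kb. They are what remained of the family after the members were chosen, so their share depends on the same choice. Most windows were found near Foxc2 and Foxf1a, with 14 each in a shared stretch of chromosome 8, Foxo4 (12), Foxa3 (11) and Foxr1 (9), all on the 4 chromosomes where more called peaks were kept. Foxo4, a FOXO gene, and Foxa3, a pioneer factor of liver, had a promoter window and the 3 others had none. Foxd4 and Foxi2 had 0 windows within 50 kb. Foxa1, a pioneer factor of luminal breast cells named here outside the rule, had 1 and none at its promoter. Off chromosomes 7, 8, 9 and X, 6 of 23 other forkhead genes had a promoter window.

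Of 30 genes of the FOXO pathway 25 had a promoter window, 83.3% (65.3% to 94.4%), with a median of 5.5 windows within 50 kb. They included Igf1r, the receptor of insulin-like growth factor, with 21, Insr, the insulin receptor, Pik3r1, a regulatory subunit of PI3-kinase, Akt1, the kinase that phosphorylates FOXO proteins, and Trib1, a pseudokinase, with 13 each. Those without one included Il7r, Ccr7 and S1pr1, FOXO1 targets of lymphocyte homing and survival, and Ccnd2, a cyclin repressed by FOXO proteins. Off chromosomes 7, 8, 9 and X the count was 19 of 24. The list was chosen with earlier results of these data known, and its interval does not cover that choice.

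Of 14 mitotic genes known as FOXM1 targets 10 had a promoter window, 71.4% (41.9% to 91.6%), though Foxm1 had none. They included Cks1b, a kinase subunit, with 11 windows within 50 kb, Cenpf, a kinetochore protein, with 10, Ccnb2, a mitotic cyclin, with 9, and Cdc25b, a phosphatase of mitotic entry, with 7. Aurkb, Nek2, Cenpa and Top2a had none at the promoter, with 8, 6, 2 and 11 windows within 50 kb. Of 14 genes of motile cilia, the program of FOXJ1, 3 had a promoter window, 21.4% (4.66% to 50.8%), namely the dynein chains Dnaic1 and Dnaic2 and Cfap52, listed as Wdr16, and their median was 3 windows within 50 kb. With start sites of protein-coding transcripts only, the count for cilia genes was 1 of 14.

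**Figure D5:**
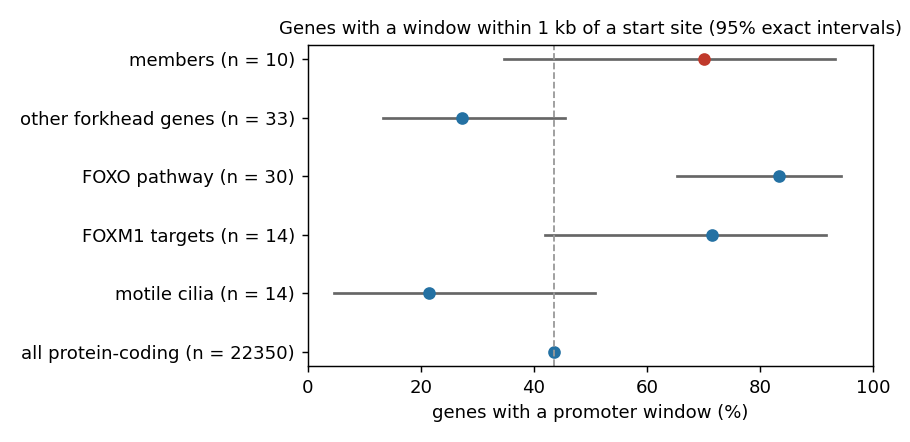
Share of genes, in %, with a promoter window for the 10 members (red), the other forkhead genes and 3 pathway lists (blue), with exact 95% binomial intervals. The dashed line is the share of all protein-coding genes, 43.5%. The interval of the FOXO pathway, 65.3% to 94.4%, lies above the line, and those of the members, the other forkhead genes, the FOXM1 targets and the cilia genes cross it. The members and pathway lists were chosen with earlier results of these data known, and the other forkhead genes are those that remained. The intervals do not cover that choice.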

How the data were processed

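Single cells of 1 MMTV-PyMT tumor were measured by Pi-ATAC, and all wells form 1 group. The deposited values are of another kind than counts: the authors' positions of windows, 1 list for all wells. Per the methods and labels, the authors aligned reads by Bowtie2 2.1.0 against mm9, used Picard 1.79 against duplicates, called summits on aggregated cells with MACS2 at a q threshold of 0.05, widened them to 500 bp and kept the 50000 windows with the lowest q. The list holds no score, q or count, so the depth behind each window is unknown. Start sites and gene bodies came from GENCODE vM1 and sequence from NCBIM37, both of build mm9, with coordinates counted from 1. The members and gene lists were chosen with earlier results of these data known. Counts were set beside all protein-coding genes or all windows, with exact binomial (Clopper-Pearson) 95% intervals and no chance test. Words were matched as plain letters on both strands. Named genes were all members and, of each list, those with most windows and those without. For the cilia list, 3 genes were matched by an older symbol. Counting and word search were tested on simulated data. Python 3.11.15, numpy 2.4.6, pandas 2.3.3, scipy 1.17.1 and matplotlib 3.10.9 were used.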

Additional observations from a re-analysis of the deposited data

How the results depend on the processing

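The 7 members kept their number under each alternative tried (promoter distances of 500 bp and 2 kb, start sites of protein-coding transcripts only, windows covering the start site itself), and 18 of 20 promoter counts over the 5 lists stayed within 1.5 times. The exceptions were other forkhead genes with a window over the start site (3, against 9) and cilia genes by protein-coding transcripts (1, against 3). The background share of promoter windows was 30.0% over all 37252 annotated genes and 42.8% without chromosomes 7, 8, 9 and X. With a reach of 10 kb there were 28 windows and a median of 3 per member, and with 100 kb a median of 9.5. Without Foxp1 and Foxp4 there were 39 windows and a median of 3.5. Merging overlapping windows left 60 of the 63 windows within 50 kb and 42 of the 45 in gene bodies. The broad forkhead word became less frequent as GTAAACA only (15.9%) and in the central 200 bp of each window (17.4%, against 12.5% of all windows). It was in 33.3% of the 39 windows both within 50 kb and inside the gene body. A wider word, which also allows T as the sixth base, was in 47.8% of member windows and 44.7% of all windows. In alternatives added after the data had been seen, the GTAAACA share was 15.2% with overlapping windows merged and 11.5% without Foxo1. No interval was computed for either share. No paired analysis was possible because all wells form 1 group and the list holds no value per well, so samples could not be left out either. A stricter peak threshold could not be run without a score, and the list cannot show peaks that were called but not kept.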

Other observations

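The HIF core ACGTG, the letters that hypoxia-inducible factors share with other E-box factors, was found in 30 of 69 member windows, 43.5% (exact 95% interval 31.6% to 56.0%), against 27.6% of all windows. It was noticed among the 17 words after their values had been seen. Foxp4 held 7 such windows, Foxk1 and Foxn3 6 each, Foxo1, Foxo3 and Foxp1 3 each, Foxm1 and Foxp2 1 each, and Foxc1 and Foxj1 0. In member windows over 1 kb from any start site the share was 43.6% (30.3% to 57.7%), against 24.0% of all windows placed so. With overlapping windows merged it was 45.5%, and without Foxp4 40.4%. Member windows also held more CpG, with a median of 10 against 7, and the part of base composition in the difference was not tested.

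The same words were counted in windows of the other lists, and no difference from the members was tested. GTAAACA was in 8 windows counted for other forkhead genes, 5.97% (2.61% to 11.4%), and in 21 windows of FOXO pathway genes, 9.38% (5.90% to 14.0%). ACGTG was in 30.6% of the windows of other forkhead genes and 26.8% of those of FOXO pathway genes, with a median CpG of 9 and 10.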
